A study of Rattus norvegicus with 102 samples.

Results

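Aged rats that still learned the water maze were compared with young rats in hippocampal CA3. The comparison holds every CA3 library labelled aged unimpaired (AU, n = 12) or young (n = 10), 22 of the 102 libraries of the series, and leaves out the 12 CA3 libraries of aged impaired (AI) rats. All animals were male Fisher 344 rats (spelled Fischer in the methods) with no treatment, the young 5 to 6 months and the AU rats 17 to 22 months old, and the maze alone divided the aged rats. Each of the 34 rats gave 1 library per subfield (CA1, CA3 and the dentate gyrus, DG), so each library here is a separate animal. The same RNA was read as poly-A libraries on Illumina and again on Ion Proton, and a further table is labelled WT. Values are normalised reads, that is reads per gene divided by a size factor of the library, and are from the Illumina table unless another is named.

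CA3 is the hippocampal field whose pyramidal cells receive the mossy fibres of the dentate gyrus and excite one another through recurrent collaterals. It is known for its part in associative storage and for changed firing in old animals. Tissue dissected from it also holds microglia, the resident macrophages of the brain, along with astrocytes, oligodendrocytes, vessels and whatever meninges or choroid plexus came with the dissection. In a bulk library fewer cells of a type and less RNA per cell cannot be told apart.

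Illumina libraries held 17.5 ± 12.7 M reads in young (SD, n = 10) and 14.5 ± 9.81 M reads in AU rats (SD, n = 12), a difference that did not pass a two-sided permutation test (p = 0.522, with 0.836 for Ion Proton and 0.804 for the WT table). CA3 marker genes were present in each library, with summed levels of 15913 to 45427 normalised reads in young and 11610 to 41510 in AU rats. By marker scores 3 of the 22 libraries lay nearer to CA1 or DG in both poly-A tables (2 young, 1 AU). The distance combined CA1, CA3 and dentate granule scores, so some libraries that scored higher for CA1 than for CA3 still lay nearest to CA3. Among them were young rat R9879 (9.81 against 8.70, mean log2 levels) and AU rat R9860 (9.34 against 8.62). The library of young rat R9876 carried leptomeningeal genes, whose summed level was 47533 normalised reads there against at most 3005 in the other young and 5520 in the AU libraries. That of young rat R2221 carried choroid plexus genes (20890 against at most 3179 in the AU libraries). The results below that changed most without rat R9876 are also given without it. Per the methods, rats of an Arizona and a Florida site were pooled, and the labels do not give the site of a rat.

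No gene of 14244 tested passed an adjusted p under 0.05 (limma, Benjamini-Hochberg; 0% called, smallest adjusted p = 0.465). At an unadjusted p under 0.05 there were 470 genes (3.3%; 271 higher, 1.9%, and 199 lower, 1.4%), edgeR on recovered reads called 0 and DESeq2 called 3 after adjustment. The study chose seed genes with DESeq2 at an unadjusted threshold and retested them on the other platform. With limma in its place, an unadjusted p under 0.01 gave 98 seeds (0.688% of the genes tested, with 78 or 0.548% higher and 20 or 0.14% lower in AU rats), while 1% of the genes tested is 142. Of the seeds, 55 (0.386%) also had a one-sided p under 0.05 in the same direction on Ion Proton. With DESeq2 on recovered reads there were 130 seeds and 77 retested genes, of which 52 were among the 55. These 55 genes, called retested below, comprised 48 higher (0.337%) and 7 lower (0.0491%) in AU rats. The balance depended on the fit, with 50 higher and 20 lower by edgeR and 54 higher and 48 lower in rats numbered from 9000 alone. Because both platforms read the same RNA, the retest bears on sequencing error and not on differences between animals. Without the 3 libraries that lay nearer to another subfield 27 genes were retested, 20 of them among the 55. No gene separated the groups completely, with or without rat R9876 (0% of genes in either direction).

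The retested genes had a median absolute log2 change of 0.41, and 8 exceeded 1. Of the 53 that were tested in the WT table, 52 had the same direction, Sept1 being the exception, and 38 had a p under 0.05 in that direction, as had 1.71% of all its genes for higher and 1.51% for lower levels. The WT table holds the same rats on which the genes were chosen, so this does not bear on differences between animals. The share of all genes with the same direction in both tables was not counted. For 29 of the 48 higher genes each of the 12 AU libraries lay above the young median. That count partly follows from choosing the genes on these values, and it was not set against all genes. The plot of the 3 tables shows 54 of these changes side by side.

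**Figure D1:**
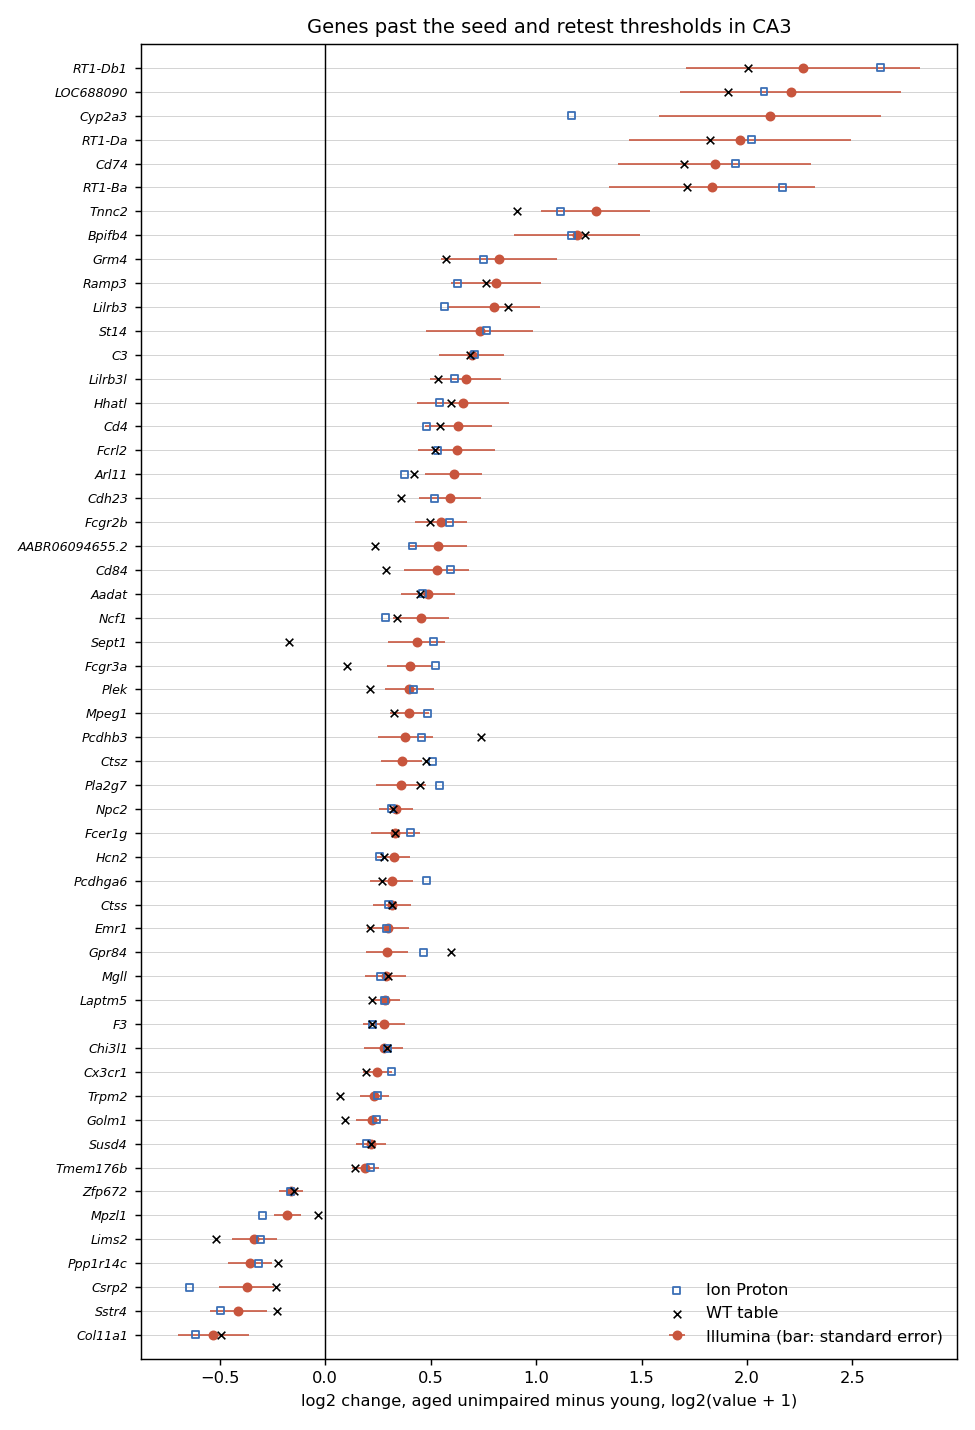
Log2 change of 54 of the 55 retested genes (aged unimpaired minus young, on the log2(value + 1) scale) in the Illumina table (circles, bars are standard errors), the Ion Proton table (squares) and the WT table (crosses). The genes were chosen by the Illumina and Ion Proton values, RT1-Db1 stands highest at 2.27 and Col11a1 lowest at -0.53 in the Illumina table.

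MHC class II genes were among those with the largest differences, together with Cyp2a3 (below). Class II molecules present peptides to CD4 T cells and are carried in the brain mainly by activated microglia and border macrophages. All 5 class II genes that could be tested of 12 listed were retested and higher in AU rats, with a median log2 change of 1.97 against -0.01 over all genes. The remaining 7 were at low levels or absent from the test. RT1-Db1 and RT1-Da encode the beta and alpha chains of one class II pair, RT1-Ba an alpha chain of the other, and Cd74 the invariant chain that escorts class II molecules to the endosome.

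Cd74 (ENSRNOG00000018735, chromosome 18) was at 84.7 to 868 normalised reads in young rats (median 181) and at 252 to 4144 in AU rats (median 668). The groups overlapped, since 5 AU libraries exceeded the highest young library, which was that of rat R9876, and the next young library stood at 547. Its log2 change was 1.85 (SE 0.46, limma p = 5.17e-04, adjusted p = 0.465), 1.95 on Ion Proton and 1.70 in the WT table.

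RT1-Db1 (ENSRNOG00000033215, chromosome 20) was at 8.59 to 194 normalised reads in young rats (median 24.1) and at 42 to 963 in AU rats (median 138), a log2 change of 2.27 (SE 0.55, limma p = 4.46e-04). RT1-Da (chromosome 20) lay between 12.3 and 268 in young rats (median 41.9) and between 66.2 and 987 in AU rats (median 133), with a log2 change of 1.97 (SE 0.53). RT1-Ba (chromosome 20) ranged from 12.3 to 172 in young (median 38.2) and from 45.2 to 796 in AU rats (median 123), a log2 change of 1.83 (SE 0.49). For each of these 3 genes all 12 AU libraries lay above the young median, the highest young library was that of rat R9876 and the highest AU library that of rat R2185. LOC688090 of the same list was at 11 to 214 in young (median 28.3) and 45.2 to 890 in AU rats (median 136), a log2 change of 2.21 (SE 0.52), again with every AU library above the young median. Class II genes are near-identical in parts, so reads may have been split among them.

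Without rat R9876 the 5 class II changes were larger, from 2.06 for RT1-Ba to 2.56 for RT1-Db1 on the log2 scale. Rat numbers fall in a series below 9000 and one from 9000 up, each with 5 young and 6 AU rats, and the labels do not say what the numbers stand for. Below 9000 the groups did not overlap for any of the 5 genes (Cd74 was at 111 to 341 in young and 464 to 4144 in AU rats), as was so in the higher direction for 0.26% of all genes. From 9000 up Cd74 was at 84.7 to 868 in young and 252 to 1087 in AU rats, a log2 change of 1.19 (limma p = 0.0776) against 2.5 in the lower numbers (p = 3.02e-04), and whether the series differed was not tested. Levels of the class II genes varied among AU rats by more than an order of magnitude, and the summed list reached 7828 normalised reads in its highest AU library against a median of 1217.

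**Figure D2:**
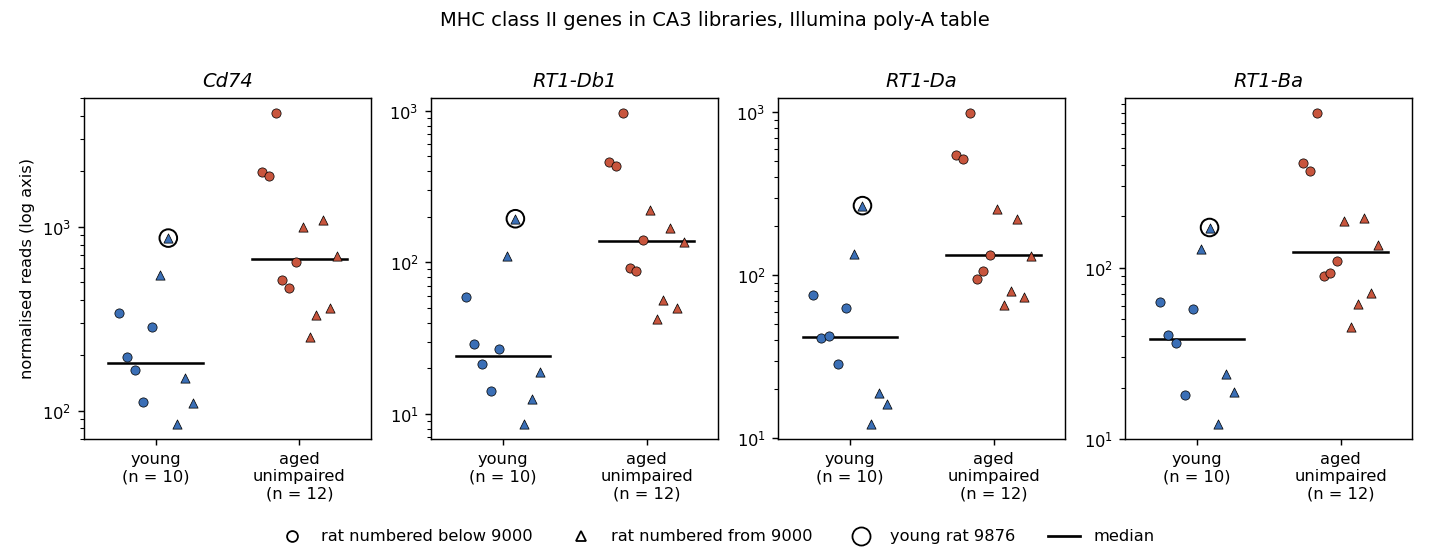
Normalised reads (log axis) of Cd74, RT1-Db1, RT1-Da and RT1-Ba in each CA3 library of young (blue) and aged unimpaired (red) rats, with the group median as a bar. Circles and triangles are rats numbered below and from 9000, and the ringed point is young rat R9876, the highest young library in all 4 panels.

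The 150 bases before the transcript starts of these genes are shown because the class II genes moved together. They are from RefSeq (GRCr8, which is not the rn5 build of the files) and 4 of the 5 tested genes matched by symbol, LOC688090 not. Capitals mark 2 motifs known from class II promoters and searched on both strands, the Y box CTGATTGG, found in 2.45% of 33469 promoter windows of the same length, and the core of the X box as GCAACNGAT, found in 0.194%. The windows are chr18:56527056-56527205 (plus strand) for Cd74, chr20:4576907-4577056 (plus) for RT1-Ba, chr20:4515265-4515414 (plus) for RT1-Da and chr20:4560163-4560312 (minus) for RT1-Db1.
Cd74: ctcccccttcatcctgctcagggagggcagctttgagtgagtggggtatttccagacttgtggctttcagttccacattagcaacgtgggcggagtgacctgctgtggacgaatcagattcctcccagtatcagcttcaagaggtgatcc
RT1-Ba: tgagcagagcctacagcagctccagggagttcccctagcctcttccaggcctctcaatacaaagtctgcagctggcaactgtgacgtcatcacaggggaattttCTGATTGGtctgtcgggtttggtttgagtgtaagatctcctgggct
RT1-Da: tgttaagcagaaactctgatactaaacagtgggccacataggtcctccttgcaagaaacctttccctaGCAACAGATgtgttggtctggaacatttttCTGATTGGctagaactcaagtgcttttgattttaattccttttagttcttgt
RT1-Db1: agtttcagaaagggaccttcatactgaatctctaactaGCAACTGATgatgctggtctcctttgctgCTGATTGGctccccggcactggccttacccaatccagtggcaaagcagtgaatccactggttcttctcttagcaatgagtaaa
The Y box letters occur in 3 of these 4 windows and the X box letters in 2, both in RT1-Da and RT1-Db1. Cd74 has neither string in this window, which says only that these exact letters are not there.

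Microglial and phagocyte genes formed the next group. Over 5 lists (MHC class II, Fc receptors, complement, lysosome and homeostatic microglia) 75 genes were tested, 67 were higher in AU rats (43.4% of all genes were), 31 had an unadjusted p under 0.05 in that direction where 1.9% of all genes did, none had one in the lower direction, and 15 were retested (0.386% of all genes). These counts include the 5 class II genes described above. They leave out the lists of activated microglia (11 of 16 higher, median log2 change 0.05) and of border macrophages and blood monocytes. Of the latter 1 of 5 was higher (median -0.30), and 4 of 5 without R9876 (median 0.05). Of 16 homeostatic microglia genes 15 were higher (median log2 change 0.20), 10 had a p under 0.05 and Cx3cr1 and Laptm5 were retested. Cx3cr1, the fractalkine receptor of microglia, was at 314 to 426 normalised reads in young (median 349) and 329 to 500 in AU rats (median 428), so that 6 of 12 AU libraries exceeded every young library. Its log2 change was 0.25 (SE 0.07, limma p = 0.00144). Trem2, a lipid receptor of microglia, had the largest change of that list (0.33, SE 0.12, p = 0.0109). Olfml3 ran the other way at -0.32 with R9876 and -0.04 without. The summed level of the microglia list was 6570 to 8176 normalised reads in young and 6679 to 9064 in AU rats, and its part in the class II and phagocyte differences was not tested.

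Fc receptors, which bind antibody on phagocytes, were higher for 10 of 11 genes tested (median log2 change 0.20) and 4 were retested, against 43.4% and 0.386% of all genes. Fcgr2b, the inhibitory IgG receptor, was at 67.6 to 139 normalised reads in young (median 97.1) and 102 to 196 in AU rats (median 138), a log2 change of 0.55 (SE 0.12, limma p = 1.57e-04, adjusted p = 0.465). All 12 AU libraries exceeded the young median and 6 exceeded every young library. Fcrl2 (0.62), Fcgr3a (0.40) and Fcer1g (0.33), the signalling chain shared by several Fc receptors, were the other retested members.

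Complement genes were higher for 18 of 20 (median log2 change 0.15), and C3, the component on which the complement pathways converge, was retested. Of all genes 43.4% were higher and 0.386% retested. Without R9876 all 20 were higher (median 0.28, with 46.0% of all genes higher), and 3 were retested (0.415% of all genes), C4a and C4b in addition. C3 (ENSRNOG00000046834, chromosome 9) lay between 600 and 1133 normalised reads in young rats (median 810) and between 935 and 2246 in AU rats (median 1104). Its log2 change was 0.70 (SE 0.15, limma p = 1.52e-04, adjusted p = 0.465), 0.71 on Ion Proton and 0.69 in the WT table, and every AU library was above the young median. C4b had a larger change (0.75, SE 0.33, p = 0.0315), with rat R9876 at 215 and the other young libraries at or below 37.8 normalised reads, and without that rat its change was 1.05 (p = 6.15e-05). C4b and its near copy C4a share sequence, so reads cannot be firmly assigned between them.

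Lysosomal genes were higher for 23 of 27 (43.4% of all genes were) but by little (median log2 change 0.06). Of these, 4 were retested (0.386% of all genes): Ctsz (0.36), Npc2 (0.34), Ctss (0.31) and Laptm5 (0.28). Npc2 carries cholesterol out of the lysosome, and Ctss is the cathepsin that trims the invariant chain encoded by Cd74. Npc2 was at 1200 to 1771 normalised reads in young and 1446 to 2251 in AU rats, with 7 AU libraries above all young ones. Among 16 genes of activated microglia 4 had a p under 0.05 with a higher level (1.9% of all genes) and none was retested (0.386% of all genes), Gpnmb at 0.57 (SE 0.22, p = 0.0174) and Lpl at -0.39 (p = 0.297) being furthest from 0. Without R9876 the list median went from 0.05 to 0.13 and Gpnmb was retested (0.67).

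Interferon and class I genes were examined next. None of 32 interferon-stimulated genes had a p under 0.05 (median log2 change 0.06), where 3.3% of all genes did, and Mx1 (-0.68, SE 0.70) and Ifitm1 (-0.49, SE 0.47), both antiviral, were furthest from 0. Of 19 class I and antigen processing genes none had a p under 0.05 either (median 0.02), with RT1-A1 at 0.25 (SE 0.21) and RT1-A2 at 0.22 (SE 0.23). Without R9876 the medians were 0.13 (28 of 31 higher) and 0.09 (17 of 19 higher), where 46.0% of all genes were higher. In that fit 1 gene of the latter list had a p under 0.01, as had 0.866% of all genes. Genes of T and NK cells were mostly near 0, with up to 12 of the 15 in the table without a read in a library. Cd3e, a chain of the T cell receptor complex, was at 0 to 114 normalised reads in AU and 0 to 9.01 in young rats, with 4 AU libraries above every young one (log2 change 1.06, limma p = 0.151). Lck, the only other gene of this list that could be tested, had a log2 change of 0.03 (limma p = 0.843), and of -0.26 on Ion Proton. Of the border macrophage markers 5 could be tested, and Mrc1 (-0.32) and F13a1 (-0.44) were lower with rat R9876 and 0.05 and 0.04 without it. The plot of list members sets these lists side by side, and no list was tested against another.

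**Figure D3:**
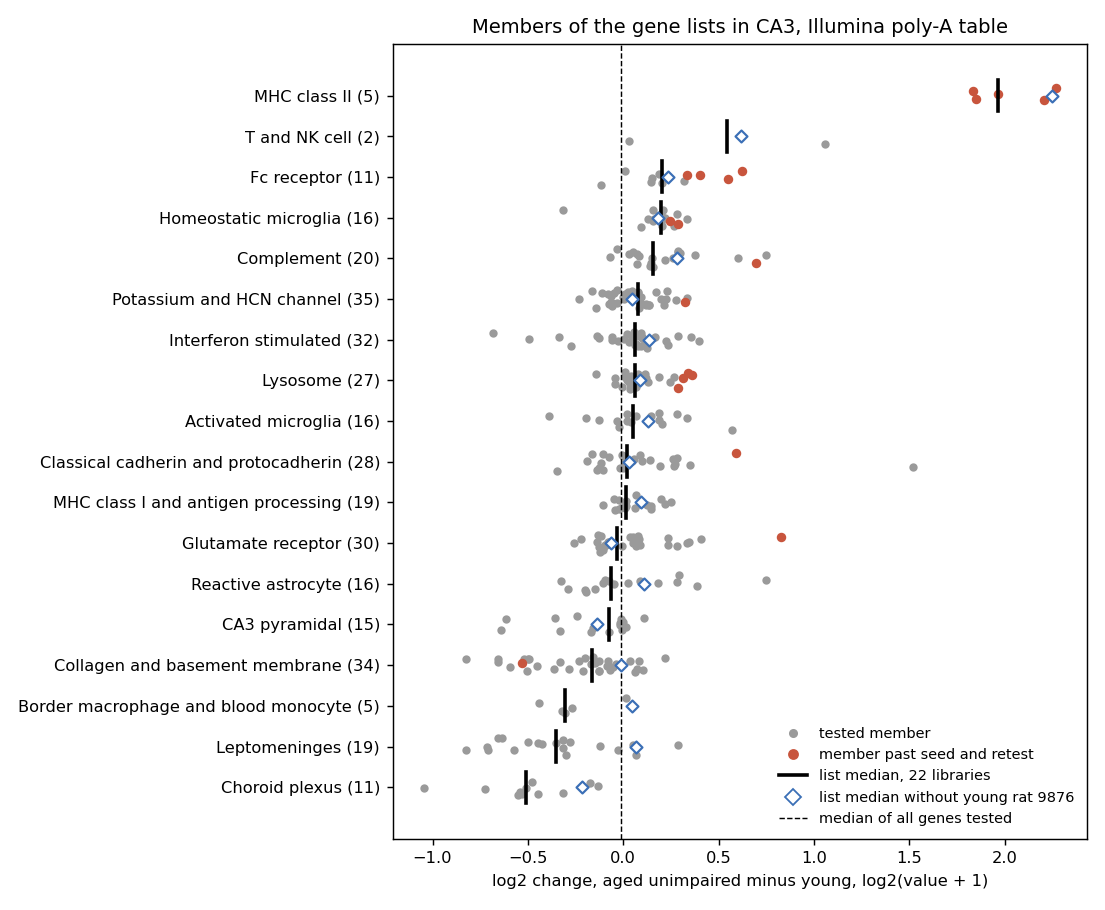
Log2 change (aged unimpaired minus young) of each tested member of 18 gene lists, with the number tested in brackets; red points are retested genes, the bar is the list median and the open diamond the median without young rat R9876. All 5 MHC class II genes lie above 1.8, while the leptomeninges and border macrophage medians move from below 0 to above 0 without that rat.

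The study named 25 genes as shared age genes of the subfields on these same rats, so their directions are not independent evidence. All 25 were tested, 24 were higher in AU rats, each of the 25 had a p under 0.05 (3.3% of all genes) and 13 were retested (0.386% of all genes, median log2 change 0.38). Beyond those above, the retested members included Bpifb4 (1.19), Cd4 (0.63), Cdh23 (0.59), Ncf1 (0.46) and Gpr84 (0.29). Without R9876 neither Ncf1 (log2 change 0.45 in that fit) nor Gpr84 (0.27) was retested, while Pld4 (0.27) and Gpr183 (0.53) were. Cd4 is carried by rat microglia and macrophages as well as T cells, Ncf1 is a subunit of the phagocyte NADPH oxidase and Cdh23 a long cadherin. Bpifb4, a lipid-binding protein family member, was at 4.19 to 50.5 normalised reads in young (median 17.6) and 23.6 to 92 in AU rats (median 40.7). Its young range and its AU range thus overlapped, with 2 AU libraries above the highest young one.

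Of the other members, Wdfy4, Itgb2 and Slc14a1 were seeds that did not pass on Ion Proton, and the rest had an Illumina p over 0.01 and so were not seeds. Wdfy4 had 11 of 12 AU libraries above every young library (27.5 to 50.9 against 41.9 to 79.6 normalised reads, log2 change 0.45, p = 5.63e-04), yet its two-sided Ion Proton p was 0.324 and its WT change was close to 0. Itgb2 (0.38), Slc14a1 (0.18), Pld4 (0.24), Gfap (0.39), Nckap1l (0.21), Gpr183 (0.46), Pcdhb4 (0.26) and Csf1r (0.16) were also higher. Gfap, the intermediate filament of astrocytes, was at 7592 to 19499 normalised reads in young (median 12546) and 10947 to 25137 in AU rats (median 14817). Col4a5, a basement membrane collagen, was the member at a lower level in AU rats (-0.50, p = 0.0392), and was at -0.30 (p = 0.0762) without rat R9876, whose library held 318 normalised reads against at most 118 elsewhere in the young group.

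Several retested genes outside the immune lists had large differences. Tnnc2 (ENSRNOG00000015155, chromosome 3), which encodes the fast skeletal muscle form of troponin C, had the smallest p of all genes (4.79e-05, adjusted p = 0.465). It was at 18.8 to 70.1 normalised reads in young rats (median 30.5) and at 42.2 to 238 in AU rats (median 81.9), a log2 change of 1.28 (SE 0.26), 1.12 on Ion Proton and 0.91 in the WT table. All AU libraries were above the young median and 7 were above every young library.

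Ramp3, a partner protein that alters the ligand choice of calcitonin-family receptors, was at 22.8 to 44.7 normalised reads in young (median 34.9) and 35.2 to 169 in AU rats (median 59.7). Its log2 change was 0.81 (SE 0.21, p = 8.44e-04), and 9 AU libraries exceeded every young one. Grm4, a presynaptic metabotropic glutamate receptor, was at 50.9 to 217 in young (median 78.5) and 78.8 to 373 in AU rats (median 129), a log2 change of 0.83 (SE 0.27, p = 0.00627). Both genes were higher mainly in AU rats numbered from 9000 up (log2 change 1.23 for Ramp3 and 1.18 for Grm4) and less so below (0.39 and 0.47), a difference that was not tested.

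Cyp2a3, a cytochrome P450, was at 0 to 26.5 normalised reads in young and 6.55 to 69.6 in AU rats (log2 change 2.11, SE 0.53, p = 5.65e-04), low levels at which its Ion Proton change was 1.17. St14, a membrane serine protease, was at 7.77 to 44.7 and 15.6 to 58.4 (0.73, SE 0.25). Lilrb3, an inhibitory leukocyte receptor with a near copy in Lilrb3l, was at 6.39 to 29 and 22.8 to 57.2 (0.80, SE 0.22). Hcn2, which carries the hyperpolarisation-activated current of neurons, was at 1034 to 1624 in young (median 1358) and 1407 to 2012 in AU rats (median 1639), a log2 change of 0.33 (SE 0.08, p = 3.41e-04). All 12 AU libraries lay above the young median of Hcn2 and 6 above every young library. Its Ion Proton change was 0.26, and without R9876 Hcn2 was not retested (Illumina log2 change 0.29, Ion Proton two-sided limma p = 0.111).

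Retested genes that were lower in AU rats differed less, from -0.53 for Col11a1 to -0.16 for Zfp672. Col11a1, a fibrillar collagen chain, was at 179 to 442 normalised reads in young (median 215) and 83.8 to 268 in AU rats (median 162), with 8 AU libraries below every young one (log2 change -0.53, SE 0.17, p = 0.00451). Sstr4, a somatostatin receptor, was at 225 to 447 in young (median 312) and 141 to 334 in AU rats (median 261), a change of -0.41 (SE 0.135). In rats numbered from 9000 up the groups did not overlap for Sstr4 (-0.81, where 0.211% of all genes were lower without overlap), and below 9000 its change was -0.02. The number series also differed in subfield markers, with a median summed level of CA3 markers of 27111 from 9000 up and 38390 below, and of CA1 markers of 10125 and 5089. From 9000 up the CA1 marker score (mean log2 level) was 8.99 to 9.81 in young and 8.08 to 9.34 in AU rats, and Sstr4 had a mean of 408 normalised reads in CA1 and 322 in CA3 of young rats. The part of CA1 tissue in this difference was not tested. Csrp2 (-0.37), Ppp1r14c (-0.36), a protein phosphatase inhibitor, Lims2 (-0.34) and Mpzl1 (-0.18) were the others. Without rat R9876 only Col11a1, Sstr4 and Ppp1r14c of these 7 were still retested. All 55 retested genes kept their direction and a limma p under 0.05 without that rat, in a fit that shares every other library.

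Cdh1, the epithelial cadherin, showed how far 1 library carried a result. It was at 5.15 to 582 normalised reads in young rats (median 10.5) and 31.2 to 163 in AU rats (median 46.3), with a log2 change of 1.52 (SE 0.56, p = 0.012, adjusted p over 0.05). The value of 582 came from rat R9876, the next young library held 38.5, and all 12 AU libraries were above the young median. Without that rat Cdh1 was the only gene past the adjusted threshold (log2 change 2.07, limma p = 1.16e-06, adjusted p = 0.0165, 0.00704% of 14205 genes), whereas edgeR without that rat called 0 genes (120 at an unadjusted p under 0.01), and R9876 also held the meningeal genes named above. With all libraries the direction depended on the tool, edgeR giving -0.25 and DESeq2 1.82 (adjusted p = 0.00546), and the mean was 70.7 normalised reads in young and 56.8 in AU rats. Among the rats numbered below 9000, which do not include it, Cdh1 was at 5.15 to 13 in young and 31.2 to 62.2 in AU rats.

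Leaving out rat R9876 gave 123 seeds (0.866%) and 59 retested genes (0.415%), with 56 higher (0.394%) and 3 lower (0.0211%), of which 39 were among the 55. The 20 gained genes included, besides Cdh1 and C4b, S100a6 (0.71), Icam1 (0.52), Tgfb1 (0.43) and Stat3 (0.21), singled out after their values were seen. Leptomeningeal genes had a median log2 change of -0.35 with the rat and 0.07 without it, and Col3a1 (-0.82) and Slc22a6 (-0.72) had p-values of 0.216 and 0.311 with it. Collagen and basement membrane genes had a median of -0.17 with it and -0.01 without, with 28 of 34 and 19 of 34 lower. Choroid plexus genes were lower for 11 of 11 with it (median -0.51) and for 10 of 10 without it (median -0.22), with Kcnj13 (-1.04, p = 0.187) and Ttr (-0.73, p = 0.461) furthest from 0 in the whole group, the latter at 11823 normalised reads in young rat R2221.

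Medians of neuronal gene groups were close to 0. Over 10 lists (glutamate and GABA receptors, calcium channels and buffers, potassium and HCN channels, vesicle release, postsynaptic scaffold, early genes, neuropeptides, neurotrophins) list medians ran from -0.03 to 0.08. Of 271 member entries 150 were higher, 10 had a p under 0.05 with a higher level and none with a lower one, where 1.9% and 1.4% of all genes did. Grm4 and Hcn2 were retested, Hcn2 not without R9876. Grm2 (0.41, SE 0.63), next to Grm4 among glutamate receptors, and Kcnj4 (0.33, SE 0.32), the furthest from 0 among potassium channels, did not have a p under 0.05. Without R9876 the list medians ran from -0.06 to 0.05. Of 15 CA3 markers 13 were lower (median -0.08, and -0.14 without R9876), Galnt3 at -0.64 (SE 0.19, p = 0.00273) and Cpne7 at -0.62 (SE 0.38, p = 0.121). Galnt3 failed the retest on Ion Proton (two-sided p = 0.150). Nuclear respiratory chain genes had a median of -0.03 and ribosomal protein genes one of 0.03, and neither list had a member with a p under 0.05.

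The same contrast in CA1 and DG of the same rats was set beside CA3. No gene differed between CA3 and CA1 or between CA3 and DG in its AU against young effect at an adjusted p under 0.05 (limma interaction, 0% of 14161 genes). At an unadjusted p under 0.05 there were 303 genes for CA1 (2.14%) and 146 for DG (1.03%). With edgeR, 7 genes passed for CA1, among them Kl, F5, Sostdc1 and Cldn2 of the choroid plexus, with their highest CA1 AU level in rat R9865 and their highest CA3 young level in rat R2221. With the rat as a block the unadjusted counts were 478 (3.38%) and 243 (1.72%), again with none past adjustment. Of the 55 retested genes, which were chosen on CA3, 6 had an unadjusted p under 0.05 against CA1 and 5 against DG.

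Class II effects were close in the 3 subfields, with Cd74 at 1.78 (SE 0.40) in CA1, 1.85 (SE 0.46) in CA3 and 1.44 (SE 0.34) in DG, and the differences from CA3 were 0.07 (p = 0.906) and 0.41 (p = 0.494). Ramp3, Grm4 and Tnnc2 had larger changes in CA3 than elsewhere. Ramp3 was at -0.07 in CA1 and 0.15 in DG (differences of 0.88, p = 0.00544, and 0.66, p = 0.0345), Grm4 at -0.10 and -0.15 (0.92, p = 0.0197, and 0.97, p = 0.0142), and Tnnc2 at 0.23 and 0.57 (1.06, p = 0.00614, and 0.71, p = 0.0602). None of these interaction p-values passed adjustment over all genes, and the genes had been chosen for their CA3 change.

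**Figure D4:**
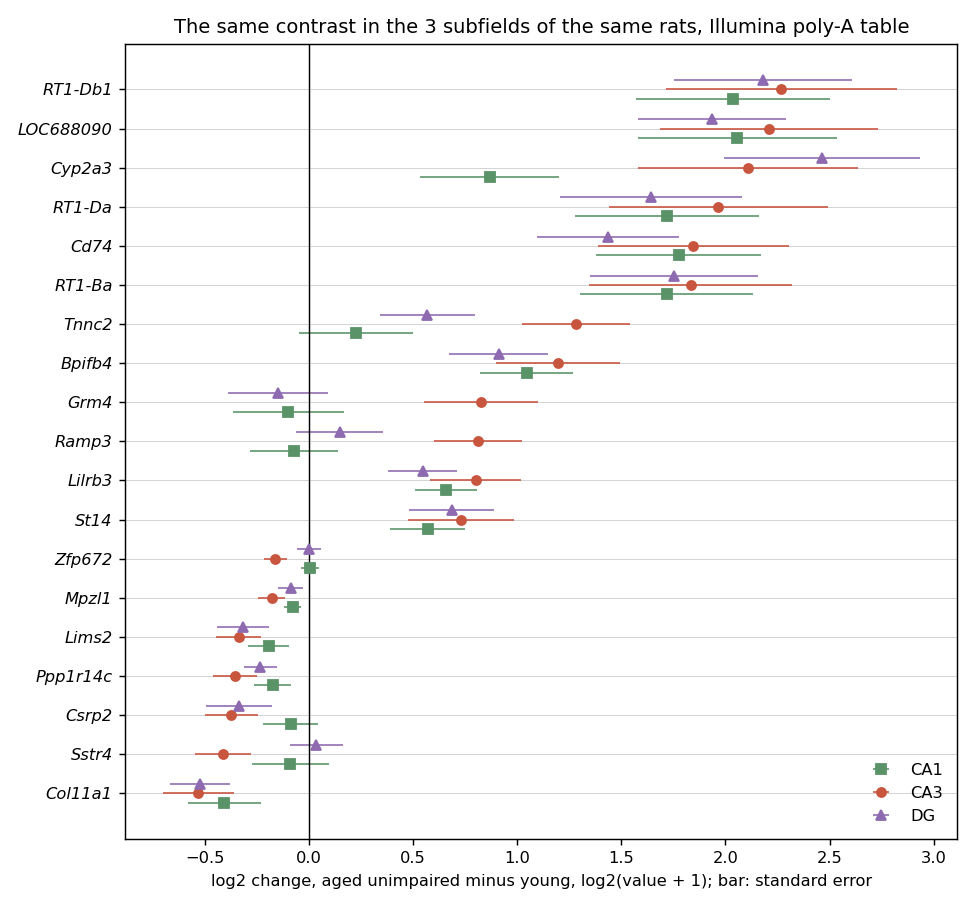
Log2 change (aged unimpaired minus young, bars are standard errors) of the 12 higher and 7 lower retested genes with the largest changes, in CA1 (squares), CA3 (circles) and DG (triangles) of the same rats. The genes were chosen on CA3; MHC class II genes lie together in all 3 subfields, and Grm4 and Ramp3 are near 0 in CA1 and DG.

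The AI rats give a further reading of the same genes. No gene differed between AI and AU rats in CA3 at an adjusted p under 0.05 (limma, 0% of 14232), with 199 (1.4%) at an unadjusted p under 0.05. Of the 55 retested genes 3 had such a p (Tnnc2, Ramp3 and Ppp1r14c). This contrast shares the AU libraries with the one that chose the genes. Tnnc2 was at 28.8 to 87.4 normalised reads in AI rats (median 53.9), between the young and AU medians, 0.64 lower than in AU rats on the log2 scale (log2 change -0.64, p = 0.00585). Ramp3 was at 17 to 75.1 (median 39), a change from AU of -0.71 (p = 0.00788). Ppp1r14c had an AI median of 252, against 275 in young and 227 in AU rats (0.24, p = 0.035). By contrast Cd74 was at 160 to 8694 in AI rats (median 610, -0.11, p = 0.830) and C3 at 930 to 4343 (median 1178, 0.20, p = 0.343). For 47 of the 55 genes the AI median lay nearer to the AU than to the young median. The 55 were chosen for their gap between AU and young rats, and the share over all genes was not counted. This count therefore cannot say whether AI rats resemble AU rats.

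**Figure D5:**
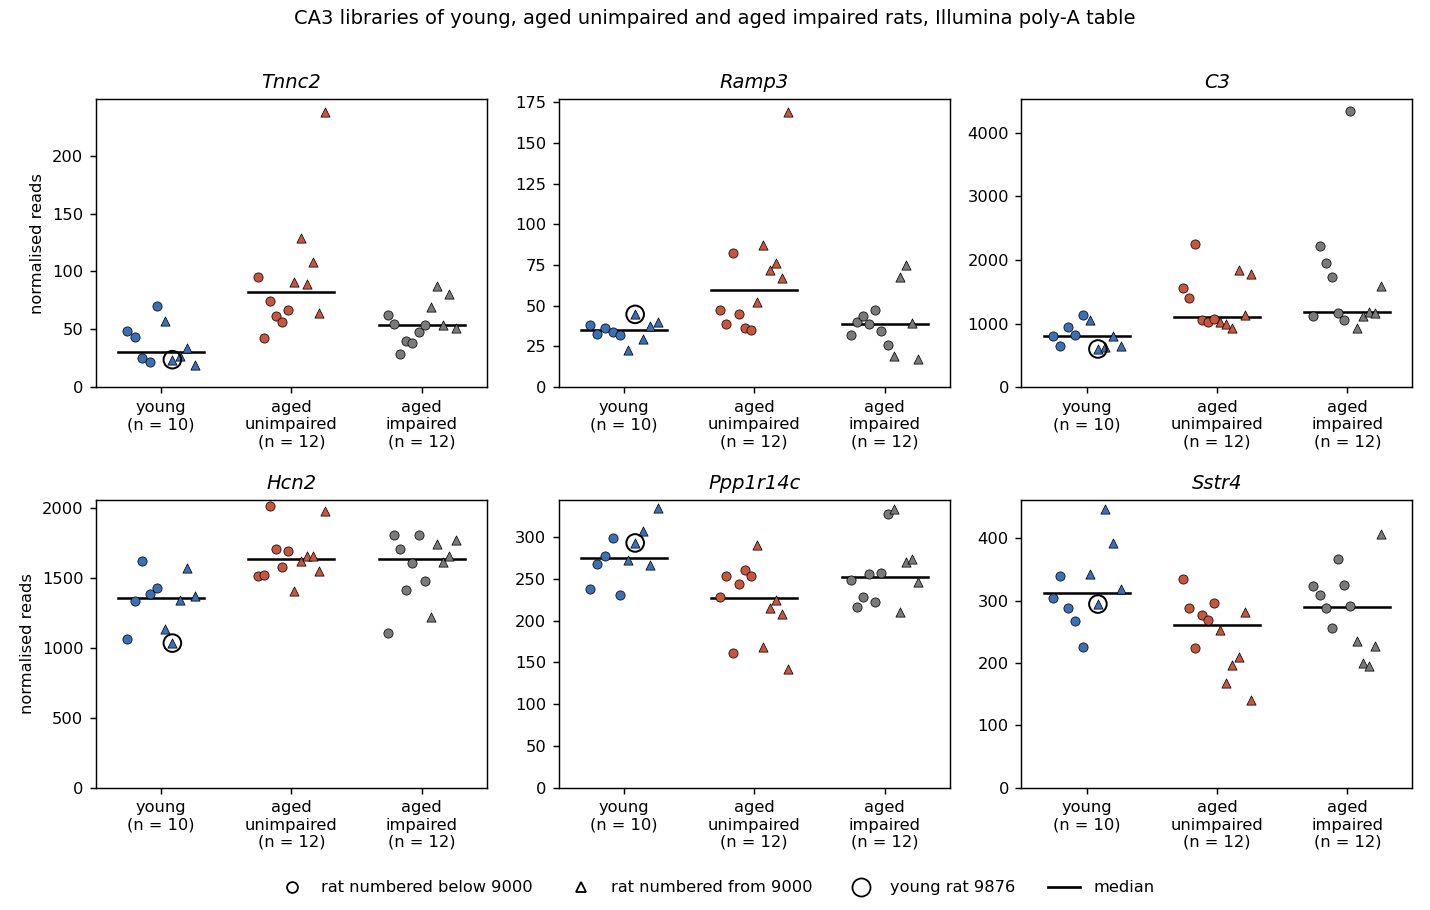
Normalised reads of 6 retested genes in each CA3 library of young (blue), aged unimpaired (red) and aged impaired (grey) rats, with the median as a bar; circles and triangles are rats numbered below and from 9000 and the ring marks young rat R9876. The AI medians of Tnnc2 (53.9) and Ramp3 (39) lie below those of the AU rats (81.9 and 59.7), while those of C3 and Hcn2 lie beside them.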

How the data were processed

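Poly-A RNA of dissected CA3 was sequenced on Illumina and, from the same RNA, on Ion Proton, and a WT table was also used. The deposited signal values are gene reads that the authors divided by 1 size factor per library (per the labels: cutadapt 1.8.3, STAR 2.5, featureCounts 1.4.4, DESeq2 1.16.1, build rn5; the methods name TopHat2 and Bowtie2 for Ion Proton). Dividing out the factor gave whole reads for 100% of values (tolerance 0.01). The labels and the methods name different library kits, so whether counting used strand is not known, and genes that overlap another on the opposite strand are uncertain. Groups came from the sample titles. Because the values are normalised, the main test was limma 3.58.1 (trend, two-sided) on log2(value + 1) over genes with a mean of at least 10, adjusted by Benjamini-Hochberg over all genes. Fold changes on that scale understate those of low genes. Seeds had p under 0.01 and the retest on Ion Proton was one-sided at 0.05. edgeR 4.0.16 and DESeq2 1.42.0 were run on the recovered reads as alternatives. Subfield effects were compared by an interaction term, also with the rat as a block: each rat gave all 3 subfields, and deviations of a rat's CA1 and CA3 libraries correlated with a median of 0.124 (over 0.1 in 13 of 22 rats), those of CA3 and DG with 0.089 (11 of 22). Depth was compared with 100000 permutations. The fit was also run on simulated reads with known changes, and no result of that run is used here.

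Genes named with values were those past the adjusted threshold, the 12 higher and up to 8 lower retested genes with the largest changes, retested members and the 2 members furthest from 0 of each described list, the tested shared age genes, and markers where a library is described. Sept1 and the genes gained without R9876 that fall outside this rule were named after their values were seen. The members and gene lists were chosen with earlier results of these data known. Depth differed widely between libraries, so low genes are measured less precisely in shallow ones. A gene that the rule picks is not reported here.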

Additional observations from a re-analysis of the deposited data

Results flagged for a closer look

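Among 67 genes, the 10 young libraries held 1 far from the others in 19 cases, by the ratio of its gap to the whole range (above Dixon's critical value for that number). Chance marks about 1 in 20 groups, and the 12 AU libraries were too many for that rule. Young rat R9876, whose library carried leptomeningeal genes, was the highest for 15 genes. Its normalised reads were 213.5 for LOC688090, 254 for Cd4, 267.9 for RT1-Da, 44.65 for St14, 581.9 for Cdh1, 214.9 for C4b and 573.5 for RT1-A1. It also held 318.2 of Col4a5, 273.5 of Kcnj13, 2889 of Col3a1, 326.5 of Olfml3, 156.3 of Ifitm1, 1261 of Slc22a6, 298.6 of F13a1 and 534.4 of Mrc1. Young rat R2221, whose library carried choroid plexus genes, was the highest for Ttr (11820) and Col11a1 (442.3). Young rat R9780 was the highest for Cyp2a3 (26.47) and young rat R9879 for Grm4 (216.6). With leptomeninges and dentate granule scores as covariates there were 124 seeds and 59 retested genes, 42 of them among the 55. Without R2221 there were 111 seeds and 60 retested genes, 40 of them among the 55.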

How the results depend on the processing

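Of 2499 alternative values for 68 genes chosen by the naming rule, 2186 kept direction and side of the threshold, 244 kept only the direction, 48 passed it newly and 21, in 9 genes, changed sign. Leaving out 1 library at a time gave 0 to 1 genes past adjustment (1 without R9876), 76 to 128 seeds and 37 to 63 retested genes. Retested genes numbered 27 without the 3 libraries nearer another subfield. With the number series as a covariate there were 171 seeds, and with no filter on low values 169 (105 higher, 64 lower). Rats numbered below 9000 alone gave 1 gene past adjustment (Cdh1) and 26 retested, and those from 9000 gave 194 seeds and 102 retested (54 higher, 48 lower). DESeq2 called 3 genes (Cdh1, Tnnc2, C3), and edgeR gave 70 retested (50 higher, 20 lower) and 7 genes for CA3 against CA1. The cause of these shifts was not tested.

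Signs changed for Wdfy4 in the WT table (-0.00041), for Cdh1 with edgeR (-0.25), for Ifitm1 with DESeq2 (0.076) and Ion Proton (0.30), and for Mx1 in rats below 9000 (0.37). With edgeR without R9876, Col3a1 was 0.17, Slc22a6 0.43, F13a1 0.13 and Mrc1 0.18, and with DESeq2 F13a1 was 0.14 and Mrc1 0.18. Without 1 library at a time F13a1 ran from -0.63 to 0.036, Mrc1 from -0.44 to 0.046 and Lck from -0.021 to 0.11. Lck was -0.21 in rats from 9000, -0.20 in the WT table and -0.26 on Ion Proton.

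No paired analysis was possible because young and AU rats are different animals. For the subfield comparisons the rat as a block left 0 genes past adjustment for CA1 and 0 for DG. Shallow libraries limit genes near the minimum of 10 normalised reads.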
